A study of Homo sapiens with 8 samples.

Results

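Ribosome footprints were set against the input RNA of the same culture, gene by gene, in all 4 cultures of the series, whatever guide RNA a culture carried. Members were the genes with a mean of at least 1 TPM (a share of a library's transcripts, corrected for transcript length) over the 4 input libraries and at least 10 TPM over the 4 footprint libraries. Symbols starting with RN7S, RNU, RNY, VTRNA, SNOR, SCARNA or MIR, which name small structural RNAs, were left out. The rule gave 3618 of the 26830 genes in the table: 3525 protein-coding genes and 93 others, among them 29 long non-coding RNAs and 28 transcribed pseudogenes. Just inside the footprint minimum lay MECR and TMEM14B, both at a mean of 10.01 TPM, and just outside it GATB at 9.99 TPM.

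The cultures are labelled HEK293T, a human embryonic kidney line, grown from a single clone that expresses Cas9, and all were held in blasticidin and puromycin after lentiviral delivery of a guide. One culture carried the control guide sgNS, and 3 carried guides against METTL16, an RNA methyltransferase: sgMETTL16-1, sgMETTL16-2 and sgMETTL16-3. Cycloheximide, which stalls elongating ribosomes, was given to every culture before lysis. There is 1 input and 1 footprint library per culture, so the 4 cultures were the replicates (n = 4 pairs), and their spread includes any difference between guides. Lists of 4 values below follow the order sgNS, sgMETTL16-1, sgMETTL16-2 and sgMETTL16-3.

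A ribosome that is translating an mRNA shields a short stretch of it from nuclease, and sequencing those stretches counts ribosomes per mRNA. Footprints relative to input RNA therefore describe how heavily an mRNA is occupied. That occupancy is known to depend on features such as 5′ terminal pyrimidine tracts in the mRNAs of the translation machinery, iron-responsive elements in ferritin mRNAs and upstream reading frames in mRNAs of stress regulators.

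The labelled line was checked against marker genes. Every input held all 12 hepatocyte markers at a level of 10 TPM or above, summing to between 6292 and 11158 TPM. The 13 markers chosen for HEK293 cells summed to between 690.5 and 1337 TPM, nearly all of it from KRT8 and KRT18, which were the 2 at a level of 10 TPM or above in every input. Of these 13 markers 7 were under 1 TPM in every input (HOXA10, HOXD13, NEFL, NEFM, PAX2, SALL4 and VIM), and VIM, listed at 0 in the inputs, had footprints in every culture, so its 0 may be a failed estimate. The hepatocyte markers go against the label, and the cells are called here the cultures labelled HEK293T. Of 12 blood cell markers 8, and of 10 fibroblast markers 8, were under 1 TPM in every input. In bulk libraries fewer cells of a type and less RNA per cell cannot be told apart. METTL16, which was no member, was at 5.31, 4.72, 5.25 and 4.16 TPM in the inputs. Its footprints were at 19.76 TPM in sgNS and listed at 0 in the other 3 cultures.

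Members held 23.5% to 28.4% of the input TPM and 18.2% to 30.0% of the footprint TPM, the lowest footprint share being that of sgMETTL16-3. Footprint libraries were sparse: 4362 to 6735 genes were above 0, of which 2351 to 3171 were members. Of the members, 1587 were above 0 in all 4 footprint libraries, 1114 in 3, 716 in 2 and 201 in 1. Read totals were not used here, so depth is unknown, no counting interval can be given, and a footprint value of 0 may be a gene with few reads. Symbols of small structural RNAs took 51.7% to 65.5% of footprint TPM and ribosomal RNA 7.42% to 21.7%.

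The quantity compared was the log2 ratio of footprint to input, log2(TPM/size factor + 1), averaged over cultures. Every library was divided by the median gene seen in all 8 libraries, so a ratio of 0 means the same footprint share as that gene, and a ratio says nothing of absolute ribosome numbers. "Higher" and "lower" mean a higher or lower footprint share relative to input, at a Benjamini-Hochberg adjusted p under 0.05 in a limma fit over all 11233 genes with a mean of 1 TPM or more and with culture as a block.

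Among the 3618 members 204 were higher, 433 were lower and 2981 were not called. The counts of higher and lower list members given below are to be read against these. Whether a list differs from the other members was not tested. Over all genes tested 2.79% were higher and 34.7% were lower. The members' median log2 ratio was -0.78 (5th to 95th percentile -3.72 to 1.74), against -1.56 over all genes tested. The minimum on footprints removes the genes with few footprints, so the members' place above all genes is set by the rule. In all 4 cultures 506 members had a ratio above 0 and 1125 a ratio below 0, where 5.47% and 45.1% of all genes tested did so.

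**Figure D1:**
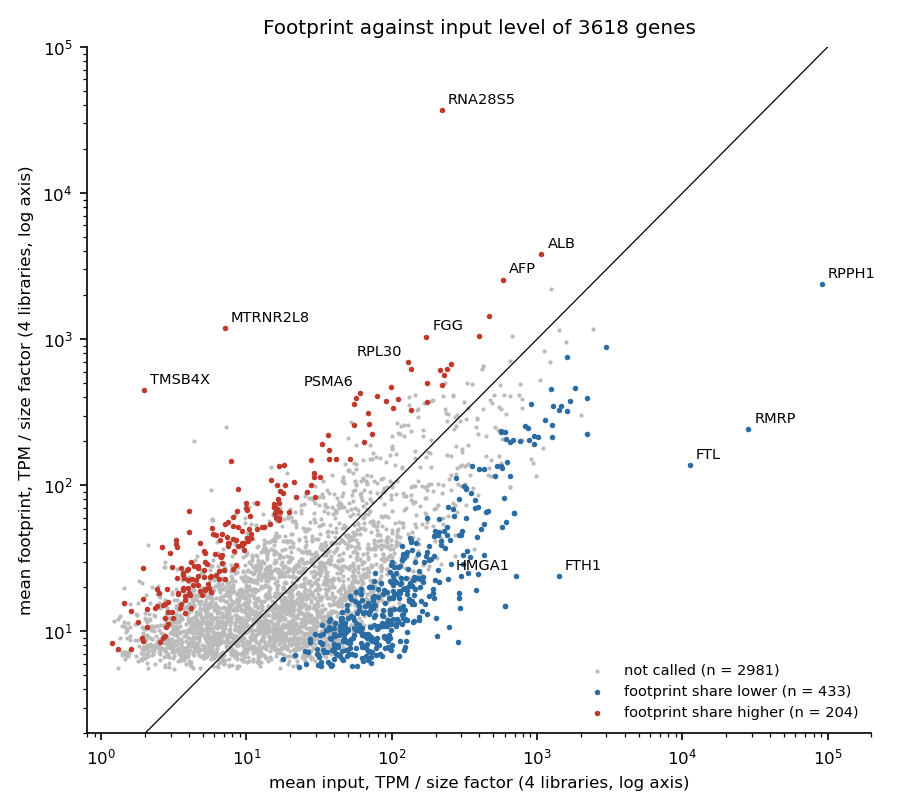
Mean footprint level against mean input level of the 3618 members, both in TPM divided by the size factor of the library and averaged over 4 libraries, on log axes, with the line of equal levels. The 204 higher genes (red) lie above the line and the 433 lower genes (blue) below it, and the lower edge of the cloud follows the footprint minimum of 10 TPM.

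Where the line between higher and lower falls depended on the scaling. With TPM as deposited 348 members were higher and 56 lower, and with TPM rescaled over protein-coding genes 318 were higher and 57 lower. No member was higher under one scaling and lower under another. Under all 3 scalings 193 members were higher and 36 lower. The genes that also kept their call when each culture was left out in turn, a set formed after seeing the data, numbered 74, of which 44 were higher and 30 lower. All 44 higher and 28 of the 30 lower were above 0 in all 8 libraries, but TERC and MT1G had footprints in 1 culture only. These 74 are called the steady genes below. Every other call was lost under at least 1 of the other scalings or without at least 1 culture. The settings that ended the call are named for the genes described in most detail. The median of 8 of the 25 lists with 5 or more members changed sign with TPM as deposited, and that of 6 with TPM rescaled over protein-coding genes.

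Among protein-coding members with a mean input of 10 TPM or more, the highest ratio was that of MDH1, a malate dehydrogenase, with input values of 8.97, 17.63, 23.23 and 8.09 TPM and footprint values of 244.88, 166.23, 281.72 and 104.73 TPM. Footprint and input values did not overlap. Its log2 ratio was 2.84 (SE 0.43, limma adjusted p = 0.0061). PSMA6, an alpha subunit of the proteasome (chromosome 14, 35278558 to 35317493, GRCh38.p14), had 23.84, 48.72, 98.05 and 27.88 TPM in the inputs and 526.94, 617.89, 835.02 and 409.29 TPM in the footprints. Its ratio was 2.83 (SE 0.35, limma adjusted p = 0.003655) and lay between 2.60 and 3.15 in the 4 cultures, among the narrowest spreads in the plot of the genes with the highest and lowest ratios.

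SPP1, which encodes the secreted phosphoprotein osteopontin, had a ratio of 2.79, MMADHC, of cobalamin metabolism, 2.76, and XRCC5, a subunit of the Ku DNA-end binding complex, 2.49. TXN, the thioredoxin of the cytosol, was at 2.40. All 12 of the highest, which also include SF3B6 (2.78), RPL34, CCT2, FGG, HSP90AA1 and RPL30, were above 0 in all 8 libraries. Of these, 11 were steady genes. SF3B6, a splicing factor, was not called without sgMETTL16-1 (limma adjusted p = 0.0518).

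The 12 lowest ratios were of another kind, because 11 of the 12 genes had a footprint value of 0 in at least 1 culture. They were HIST1H2AI, FTH1, HIST1H2BN, FTL, HIST2H3A, MT1G, HIST1H4H, GPX3, MRPS24, NDUFB7, CTDNEP1 and NME2, with ratios from -6.91 to -5.42. HIST2H3C has the same values as HIST2H3A in all 8 libraries and was counted with it as 1 gene. Ratios against a footprint of 0 depend on the pseudocount, and 9 of these 12 lost their call without sgMETTL16-3, the library with the fewest genes above 0. The lowest members above 0 in all 8 libraries, picked after their values were seen, are therefore given beside them. They were FTL, HMGA1, SLC25A6, MLEC, GPT2, TRAM2, PYCR1, MGAT4B, SRM, RHOB, CYB5R3 and RPS2, with ratios from -6.35 to -3.24. Of this second set 10 were steady genes. MLEC was not called with TPM rescaled over protein-coding genes, and RHOB under neither other scaling.

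HMGA1, a chromatin architectural protein, had 411.8, 430.99, 583.28 and 593.93 TPM in the inputs and 88.09, 15.51, 32.25 and 14.65 TPM in the footprints. Its ratio was -4.98 (SE 0.48, limma adjusted p = 0.00263). SLC25A6, an ADP/ATP carrier of the inner mitochondrial membrane, was at 346.98, 293.92, 291.28 and 259.52 TPM in the inputs and 38.96, 20.57, 114.08 and 19.44 TPM in the footprints. Its ratio varied more between cultures than those of the other 11 genes of this second set, with -1.81 in sgMETTL16-2 and -4.88 to -4.38 in the other cultures. PYCR1, of proline synthesis, and GPT2, a mitochondrial alanine transaminase, had ratios of -3.29 and -3.59.

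**Figure D2:**
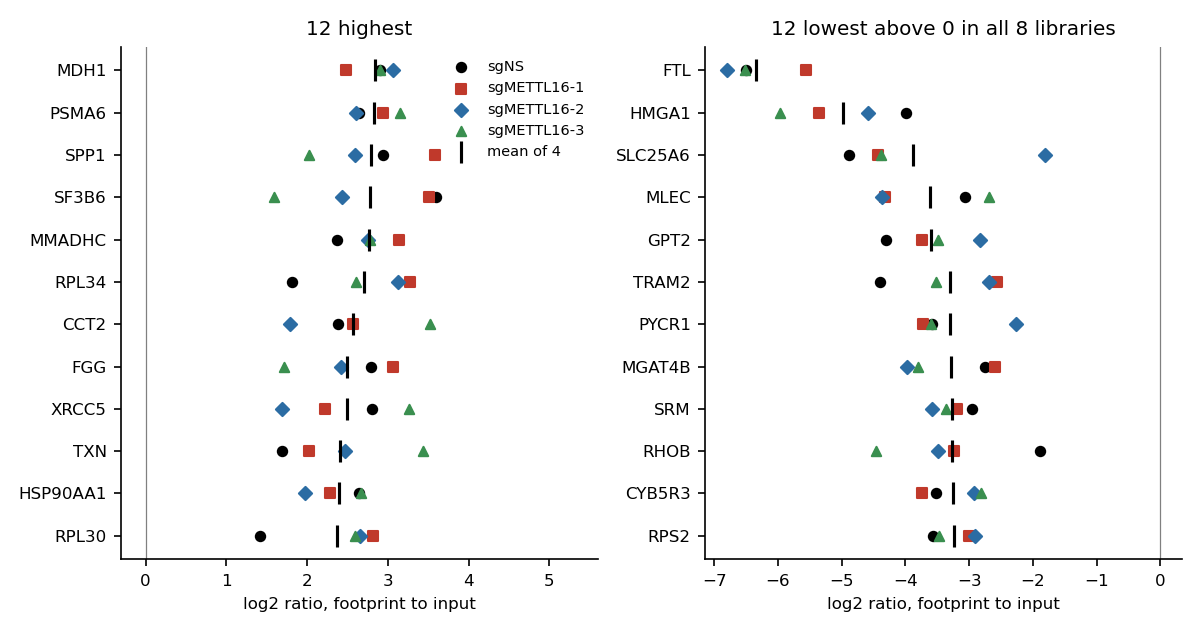
Log2 ratio of footprint to input (x axis) of the 12 highest genes (left) and of the 12 lowest genes above 0 in all 8 libraries (right), each symbol a culture and the black bar the mean of 4. PSMA6 spans 2.60 to 3.15 and FTL -6.80 to -5.56, while SLC25A6 spans -4.88 to -1.81.

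Iron-responsive element mRNAs ran from -6.67 for FTH1 to 1.81 for TFRC. The element is a hairpin that iron regulatory proteins bind; in the 5′ end of ferritin mRNAs it is known to block initiation, and in the 3′ end of the transferrin receptor mRNA to stabilise the transcript. The hairpin's loop begins with the letters CAGTG. In the FTL mRNA these letters, in capitals below, start at base 39 counted from 1 at the annotated start (RefSeq, GRCh38.p14, chr19:48965327-48965356, plus strand):
FTL: gggtctgtctcttgcttcaaCAGTGtttgg
The search ran on the gene's own strand over the 50 bases after the start, and 6.43% of 27305 RefSeq promoters hold CAGTG there. A match is a description of the letters.

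FTL, the ferritin light chain (chromosome 19, 48965309 to 48966879), was among the most abundant input mRNAs at 5381.27, 7274.36, 10008.67 and 9547.58 TPM. Its footprints were at 202.51, 249.28, 123.38 and 168.58 TPM. The groups were far apart in every culture, and the ratio was -6.35 (SE 0.26, limma adjusted p = 0.00263), or 81.4-fold lower. FTH1, the ferritin heavy chain, had 847.02, 1040.52, 1246.96 and 949.47 TPM in the inputs and 0, 49.91, 51.89 and 23.6 TPM in the footprints, a ratio of -6.67 (SE 1.07, limma adjusted p = 0.00709). It lost its call only with TPM rescaled over protein-coding genes (limma adjusted p = 0.05005) among the scalings and left-out cultures, and its ratio was -5.30 without sgNS, where its footprints were at 0. TFRC, the transferrin receptor, went the other way, with inputs of 14.19, 28.26, 32.36 and 12.83 TPM, footprints of 212.59, 177.34, 151.7 and 61.36 TPM and a ratio of 1.81 (SE 0.42, limma adjusted p = 0.0258), and it lost its call without sgMETTL16-1. SLC11A2, a metal ion transporter, was not called (0.20). Of the 8 tested genes on the list, 5 were members, with 1 higher and 3 lower.

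All 77 cytosolic ribosomal protein genes in the table were members. They encode the proteins of the small and large subunits of the ribosome, and most of their mRNAs are known to start with a pyrimidine tract through which growth signals set their translation together. Here 12 were higher, 14 were lower and 51 were not called, with a median of -0.13, which became 0.78 with TPM as deposited and 0.83 with TPM rescaled over protein-coding genes. The 71 above 0 in all 8 libraries ran from -3.24 to 2.71 with an SD of 1.41 between genes, while the median SE of a gene was 0.40. The order of these genes recurred between cultures: Spearman's rho over the 77 genes was 0.75 to 0.85 in the 6 pairs of cultures, a description over genes that share libraries.

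RPS2, of the small subunit, was the lowest of those 71, with 1503.94, 1626.0, 1607.54 and 1495.08 TPM in the inputs and 435.58, 328.31, 295.77 and 217.52 TPM in the footprints. Its ratio was -3.24 (SE 0.24, limma adjusted p = 0.00263). RPL8 was lower at -2.04, and RPS2 and RPL8 were the steady genes on the low side. RPL28 (-2.77), RPL13 (-2.52) and the stalk proteins RPLP1 (-2.22) and RPLP2 (-2.21) were also lower, but each lost its call under at least 1 other scaling, and RPL28, RPLP1 and RPLP2 also without sgMETTL16-3. RPL21, RPS26, FAU and RPS15 had the lower values of -4.64, -4.19, -3.65 and -3.52 with a footprint of 0 in some culture, and were not called.

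RPL34, of the large subunit, was at the other end, with 36.6, 42.58, 76.52 and 22.35 TPM in the inputs and 451.49, 680.57, 943.22 and 225.48 TPM in the footprints. Its ratio was 2.71 (SE 0.42, limma adjusted p = 0.00665). RPL30 followed at 2.37, RPL9 at 2.22 and RPL24 at 1.86, and these 4 were the steady genes on the high side. RPS3A, of the small subunit, was at 2.17 (SE 0.46) and lost its call without sgNS or without sgMETTL16-3. Both ends thus held proteins of the large and the small subunit. Over the 71 genes the ratio fell as the input level rose (Spearman's rho -0.66, a description; the input is part of the ratio).

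**Figure D3:**
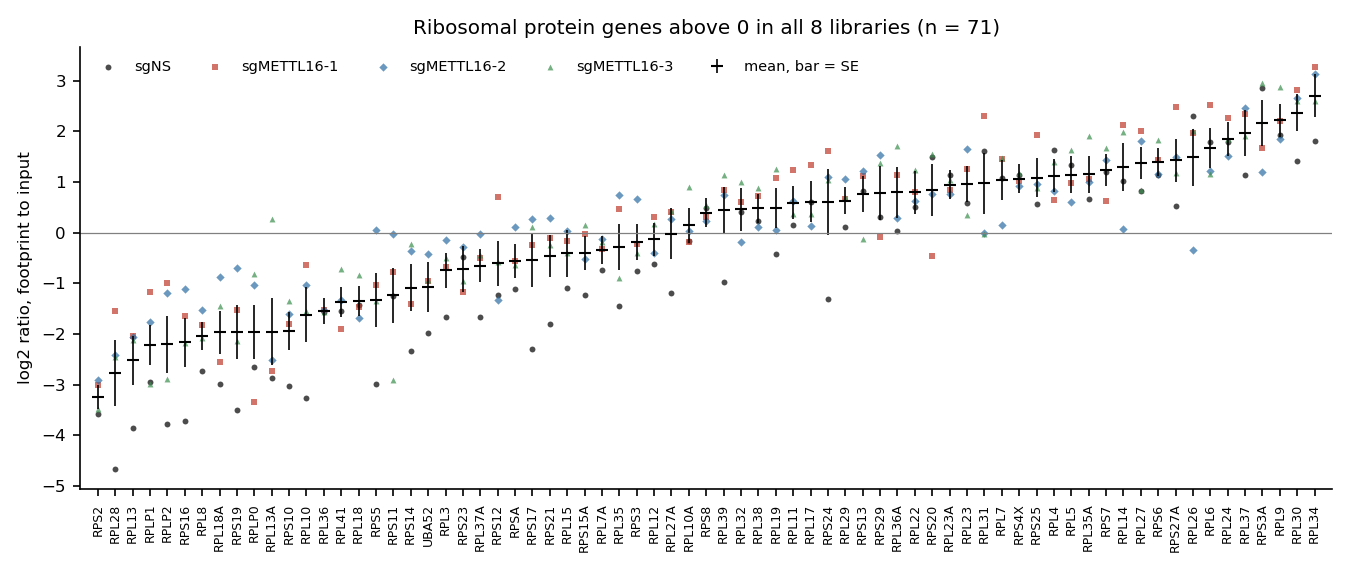
Log2 ratio of footprint to input (y axis) of the 71 ribosomal protein genes above 0 in all 8 libraries, ordered by their mean, with each culture as a coloured symbol and the mean with its SE in black. The genes run from RPS2 at -3.24 to RPL34 at 2.71, and sgNS (black dots) is the lowest culture for 9 of the 14 genes called lower.

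The annotated starts of genes at both ends are shown because the tract is the feature these mRNAs are known for. Each line holds the 10 bases before the annotated start and the first 20 bases from it, 5′ to 3′ (RefSeq, GRCh38.p14), with the pyrimidine tract in capitals. The first 4 genes were lower and the last 4 higher.
RPL28 (chr19:55385922-55385951, plus strand): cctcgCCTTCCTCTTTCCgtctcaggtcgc
RPL13 (chr16:89560647-89560676, plus strand): tgctatcatcccagagtgcattgcggggcc
RPLP1 (chr15:69452808-69452837, plus strand): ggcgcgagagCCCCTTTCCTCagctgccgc
RPLP2 (chr11:809957-809986, plus strand): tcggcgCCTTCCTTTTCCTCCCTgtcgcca
RPL24 (chr3:101686699-101686728, minus strand): atgattCTCTCTTTCTTTTCgccatctttt
RPS3A (chr4:151099618-151099647, plus strand): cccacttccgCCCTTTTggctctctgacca
RPL9 (chr4:39458903-39458932, minus strand): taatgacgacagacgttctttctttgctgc
RPL34 (chr4:108620566-108620595, plus strand): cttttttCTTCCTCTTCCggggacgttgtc
The tract was counted from a C within 5 bases of the annotated start. From that C on, at least 5 C or T letters had to stand in a row on the gene's own strand. C or T letters before that C were not counted, and such letters stand directly before the capitals of RPL34 and RPL24. As counted, tracts had 11 to 17 letters in lower genes (RPLP1, RPL28, RPLP2) and 7 to 14 letters in higher ones (RPS3A, RPL34, RPL24). The counting rule cut the runs of RPL34 and RPL24, so these lengths do not compare the ends. Each end had a gene without a tract in this window (RPL13, RPL9).

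Such a tract was present in 49 of 61 ribosomal protein members with a promoter in the table (80.3%), in 23.5% of 3001 members and in 21.1% of 27305 promoters. The ribosomal protein members with a tract had a median ratio of -0.18 and the 12 without one 0.70. Among the other members the medians were -0.69 with a tract and -0.81 without one. These are descriptions, and the annotated start may not be the start used in these cells.

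Elongation factors and other mRNAs of the pyrimidine tract class numbered 14 members, of which 3 were lower and 0 higher in the limma fit. At an unadjusted p under 0.05, 3 were higher, and 4 were called higher with TPM as deposited. EEF2, which moves the ribosome along the mRNA, was at 872.45, 1075.19, 1090.3 and 1009.58 TPM in the inputs and 452.1, 544.48, 417.34 and 378.77 TPM in the footprints. Its ratio was -2.10 (SE 0.27, limma adjusted p = 0.00402). EEF1G, of the exchange complex that reloads elongation factor 1, was close to it at -2.11, and both were steady genes. PABPC1, the poly(A)-binding protein, was lower at -1.86, a call lost under both other scalings and without sgNS, sgMETTL16-1 or sgMETTL16-3. EEF1A1, which brings aminoacyl-tRNA to the ribosome, had a ratio of 0.66 and was not called (limma adjusted p = 0.0546), although its ratio was above 0 in all 4 cultures.

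Of 33 members among the initiation factors 2 were higher and 5 lower, with a median of -0.32, which became 0.59 with TPM as deposited and 0.55 with TPM rescaled over protein-coding genes. EIF1AX, which acts in scanning for the start codon, was higher at 2.58 (SE 0.53) and EIF2S1, the alpha subunit of the factor that delivers the initiator tRNA, at 2.15 (SE 0.48). EIF4G1, the scaffold of the cap-binding complex, had inputs of 113.74, 150.54, 149.47 and 142.17 TPM and footprints of 82.05, 70.44, 45.1 and 51.14 TPM, a ratio of -2.08. EIF4EBP1 and EIF4EBP2, inhibitors of the cap-binding protein, were lower at -4.13 and -2.71. None of the 7 calls was steady: the higher ones were lost without sgNS or without sgMETTL16-1, and the lower ones under both other scalings. Of 18 tRNA synthetase members, DARS (2.54) and FARSB (2.16) were higher and QARS (-1.98) was lower, and DARS kept its call except without sgMETTL16-1. The call of FARSB was lost whichever culture was left out, and that of QARS under both other scalings.

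Chaperones, cytosolic ones with a few of the mitochondrion, had a median of 0.75 over their 28 members, with 5 higher and 2 lower. This was the highest member median of the lists with 5 or more members, but over the members above 0 in all 8 libraries cell division genes (1.22) and tRNA synthetases (1.10) stood above chaperones (0.83). HSP90AA1, the inducible HSP90, was at 30.75, 65.06, 135.31 and 34.97 TPM in the inputs and 674.99, 519.35, 741.88 and 365.84 TPM in the footprints. Its ratio was 2.39 (SE 0.35, limma adjusted p = 0.00548). CCT2, CCT8 and CCT6A, subunits of the ring-shaped chaperonin that folds actin and tubulin, were higher at 2.57, 1.81 and 1.68, and HSPD1, the mitochondrial chaperonin, at 1.50. CCT2 and HSP90AA1 were steady, and the other 3 lost their call without sgMETTL16-1, among others. The co-chaperone DNAJB1 (-2.07) and the small heat shock protein HSPB1 (-1.87) were lower, but not under either other scaling. The summed TPM of the chaperones gave a log2 ratio of 0.71 ± 0.15 (SD, n = 4), the narrowest spread of the lists.

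Of the 33 proteasome genes, all of them members, 7 were higher and 1 was lower, with a median of -0.20, which became 0.61 with TPM as deposited and 0.41 with TPM rescaled over protein-coding genes. Of the higher ones 5 were subunits of the catalytic core: PSMA6 (2.83), PSMA2 (2.77), PSMA1 (2.20), PSMA4 (2.00) and PSMB1 (1.47), joined by the regulatory subunits PSMC2 (2.57) and PSMD1 (1.59). PSMA6 and PSMA2 were the steady genes. The calls of PSMA1, PSMA4, PSMB1, PSMC2 and PSMD1 were lost without sgMETTL16-1, among others, except that of PSMA4, which was lost without sgNS or without sgMETTL16-2. PSMD2, a regulatory subunit, was lower at -1.53, a call lost under both other scalings and without sgNS, sgMETTL16-1 or sgMETTL16-3.

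Secreted liver proteins split into opposite groups. Of 43 members 7 were higher and 10 lower, with a median of -1.17. ALB, serum albumin, had 353.77, 1098.51, 1668.47 and 477.02 TPM in the inputs and 4569.66, 9572.31, 7002.11 and 1604.47 TPM in the footprints. Its ratio was 1.74 (SE 0.25, limma adjusted p = 0.00559), and AFP, the fetal counterpart of albumin, was at 2.09 (SE 0.22). FGG, the gamma chain of fibrinogen, reached 2.50, and these 3 were the steady genes; FGB, the beta chain, was at 1.66, with complement C5 at 2.00 and CFI, a regulator of complement, at 2.00. The calls of FGB, C5 and CFI were lost without sgNS, sgMETTL16-1 or sgMETTL16-2.

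Lower were AHSG, the fetuin of plasma (-2.62), the apolipoproteins APOE (-2.40), APOA1 (-2.23) and APOA2 (-1.98), and the protease inhibitor SERPINA1 (-2.30). AHSG was at 1073.67, 2103.6, 1712.03 and 1590.45 TPM in the inputs and at 293.68, 755.88, 940.58 and 256.45 TPM in the footprints. Footprints of AHSG were lowest in sgNS and sgMETTL16-3. Leaving out sgMETTL16-3 ended the call of AHSG (limma adjusted p = 0.0592) and those of the 3 apolipoproteins and SERPINA1. With TPM as deposited 9 of the 43 were higher and 1 was lower. The mRNAs that direct these proteins into the endoplasmic reticulum and fold them there gave 3 higher and 3 lower of 36 members. HSPA5, the HSP70 of the endoplasmic reticulum, was higher at 2.12 (SE 0.43), HSP90B1, its HSP90, at 1.61 and SRP14, of the signal recognition particle, at 1.84, while SEC61A1, the translocation channel, was lower at -2.69 and P4HB, a disulfide isomerase, at -2.13. None of the 6 calls was steady: the higher ones were lost without sgMETTL16-1, among others, and SEC61A1 and P4HB with TPM as deposited or without sgNS, among others.

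Replication-dependent histone mRNAs, which end in a stem-loop in place of a poly(A) tail, had a median of -3.79 over 37 members. Of these, 13 were lower and 0 higher in the limma fit, and 22 lower and 0 higher at an unadjusted p under 0.05. The 13 lower were 35.1% of the list's members, where 34.7% of all genes tested and 433 of the 3618 members were lower. With TPM as deposited 3 were lower and with TPM rescaled over protein-coding genes 2, again with 0 higher. Among the 55 tested histone genes 16 (29.1%), none of them members, were at 0 in all 4 footprint libraries, where 17.3% of all genes tested were. HIST1H4E had 1723.35, 706.32, 450.07 and 376.79 TPM in the inputs and 659.07, 433.53, 179.96 and 82.55 TPM in the footprints. Its ratio was -2.31 (SE 0.40, limma adjusted p = 0.00965), which missed the threshold without sgMETTL16-3 (limma adjusted p = 0.0526). HIST1H3B, an abundant H3 gene, was at -0.05 and was not called, so members of 1 family lay far apart. Histone genes are near-identical copies, and HIST2H3A and HIST2H3C have the same values in all 8 libraries, so the share of a single copy is uncertain. The summed histone TPM gave -2.08 ± 1.30 (SD, n = 4), from -3.54 in sgNS to -0.68 in sgMETTL16-2.

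Of 5 members among the metallothioneins, which bind zinc and copper, 3 were lower. Of these MT1G was steady, with 413.61, 156.72, 124.12 and 105.19 TPM in the inputs and 214.61, 0, 0 and 0 TPM in the footprints. Its ratio was -6.16 (SE 0.98, limma adjusted p = 0.00694), and -7.28 without sgNS. MT1G passed the footprint minimum through sgNS alone, and without sgNS all its footprints were at 0. Its kept call therefore rests on values of 0 and adds no support. MT1E, a close relative with 309.56, 629.41, 435.77 and 119.54 TPM of footprints, was at -0.09 and not called, and short reads can be shared among these copies. Of 13 selenoprotein members 4 were lower (30.8%, where 34.7% of all genes tested and 433 of the 3618 members were), and 0 were called in either direction with TPM as deposited. The lower ones were the glutathione peroxidases GPX3 (-5.97), GPX4 (-4.57) and GPX1 (-2.67), and SEPHS2 (-1.83), which makes the selenium donor. GPX1 kept its call except with TPM as deposited, and the other 3 lost theirs under both other scalings and without sgMETTL16-1, among others.

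Cell division genes had 11 of 52 members higher and 1 lower, with a median of 0.39 over the members, 0.03 over the 67 tested and 1.22 over the 30 members above 0 in all 8 libraries. TOP2A, the topoisomerase that untangles replicated DNA, had 5.46, 8.48, 10.78 and 2.87 TPM in the inputs and 148.17, 120.03, 68.78 and 54.17 TPM in the footprints. Its ratio was 2.81 (SE 0.48, limma adjusted p = 0.00903). CDK1, the kinase that drives mitosis, was at 2.84, STMN1, a regulator of microtubules, at 2.70 and PCNA, the clamp of the replication fork, at 2.25, and these 4 were the steady genes. MCM6, of the replicative helicase, reached 3.19 and lost its call without sgNS. PLK1, a mitotic kinase with inputs of 89.62, 85.2, 60.53 and 50.42 TPM, was the lower one at -2.03, a call lost under both other scalings. Input levels of the higher genes were low, from a mean of 2.59 TPM for CDK1 to 42.6 TPM for PCNA.

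Splicing factors gave 6 higher and 5 lower of 67 members, with a median of -0.39, which became 0.48 with TPM as deposited and 0.46 with TPM rescaled over protein-coding genes. SRSF7, a serine and arginine rich factor, was the steady one at 2.52 (SE 0.46), with 5.21, 7.05, 9.18 and 3.43 TPM in the inputs and 138.07, 85.08, 59.0 and 34.43 TPM in the footprints. U2AF1, the small subunit of the factor that marks the 3′ splice site, was higher at 2.16, a call lost without sgMETTL16-1, while U2AF2, its large partner, was lower at -2.32, a call lost under both other scalings. PCBP2, a poly(C)-binding protein, was lower at -2.19, and its call was also lost under both.

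Of 11 members of glycolysis, which splits glucose into pyruvate, 5 were lower (45.5%), where 433 of the 3618 members were. LDHA, lactate dehydrogenase A, was higher at 1.26. The lower ones were PFKL (-1.86), ALDOA (-1.71), TPI1 (-1.70), PKM (-1.28) and GAPDH (-1.08). None of these 6 was steady, and with TPM as deposited 2 were higher and 0 lower. Of 20 members of cholesterol and fatty acid synthesis 5 were lower and 0 higher in the limma fit. At an unadjusted p under 0.05, 8 were lower and 1 higher. Of all 3618 members 433 were lower. Over the 31 tested genes of this list 12 were lower, where 34.7% of all genes tested were. SCD, the stearoyl-CoA desaturase, was at 305.94, 437.55, 338.88 and 257.39 TPM in the inputs and 93.57, 120.84, 99.05 and 62.2 TPM in the footprints. Every input was above every footprint value, and the ratio was -2.75 (SE 0.38, limma adjusted p = 0.0049). SCD was steady, while FASN (-2.09) and DHCR7 (-2.60) lost their calls under the other scalings.

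Nuclear genes of the respiratory chain gave 1 higher and 4 lower of 68 members (median -0.95), and mitochondrial ribosomal proteins 3 higher and 8 lower of 62 (median -1.10). Footprints at 0 weigh on both medians: over the 22 and 15 members above 0 in all 8 libraries they were -0.05 and 0.78, and in the fit of such genes alone 7 of these 15 were higher and 1 lower. MRPS9 was the 1 steady gene of these lists at 2.82, with 2.79, 4.8, 8.61 and 2.58 TPM in the inputs and 39.68, 104.73, 101.64 and 39.6 TPM in the footprints. ATP5C1, the gamma subunit of ATP synthase, was higher at 2.18, a call lost without sgMETTL16-1, sgMETTL16-2 or sgMETTL16-3. All 8 lower mitochondrial ribosomal protein genes had a footprint of 0 in at least 1 culture, and none of the 8 was steady. Cytoskeleton and keratin genes gave 2 higher and 11 lower of 32 members, but none lower under either other scaling. The 11 lower were 34.4% of that list's members, where 34.7% of all genes tested and 433 of the 3618 members were lower. ACTB and ACTG1, the abundant actins, were at -1.09 and -0.69 and were not called.

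Of 12 members known for upstream reading frames, 4 were lower and 0 higher in the limma fit (6 and 1 at an unadjusted p under 0.05). These 4 were 33.3% of the list's members, where 34.7% of all genes tested and 433 of the 3618 members were lower. CDKN1A, an inhibitor of cyclin-dependent kinases, had 59.75, 156.42, 307.14 and 325.2 TPM in the inputs and 27.29, 14.41, 49.97 and 0 TPM in the footprints, a ratio of -4.79 (SE 1.21, limma adjusted p = 0.0321) that was -3.31 without sgMETTL16-3. The list's median was -2.29 over its members and 0.54 over the 5 above 0 in all 8 libraries. ATF4, the transcription factor of the integrated stress response, was lower at -3.73 and CEBPA at -4.34. These 3 calls were lost under both other scalings, and the summed TPM of the list stood lowest in sgMETTL16-3. Of 8 polyamine and antizyme members 2 were lower. SRM, spermidine synthase, at -3.28 (SE 0.42, limma adjusted p = 0.00399) was steady, and OAZ1, the antizyme whose translation needs a ribosomal frameshift, was at -2.49, a call lost with TPM as deposited. ODC1, ornithine decarboxylase, was at -0.13 and not called.

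Of all genes tested 32.2% were members. Of 43 tested immediate-early and short-lived regulators, mostly transcription factors, 16 were members (37.2%), with 3 lower (SOX9, JUND at -4.11 and NFKBIA at -4.41) and 0 higher in the limma fit (0 higher and 8 lower at an unadjusted p under 0.05). The 3 calls were lost with TPM rescaled over protein-coding genes, that of JUND also without sgMETTL16-3, that of SOX9 without sgNS and that of NFKBIA whichever culture was left out. Of 21 tested hepatocyte transcription factors 7 were members (33.3%), with CEBPA lower. Of 226 tested ZNF zinc finger genes 18 were members (7.96%). Of these 18 members 0 were called by limma's adjusted p, with 1 lower at an unadjusted p under 0.05. Of the 226 genes 64 (28.3%) were at 0 in all 4 footprint libraries. Members or not, 23 of the 43 tested regulators, 12 of the 21 hepatocyte factors and 89 of the 226 ZNF genes were lower. In each of these lists 0 tested genes were higher. Over all genes tested 34.7% were lower.

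**Figure D4:**
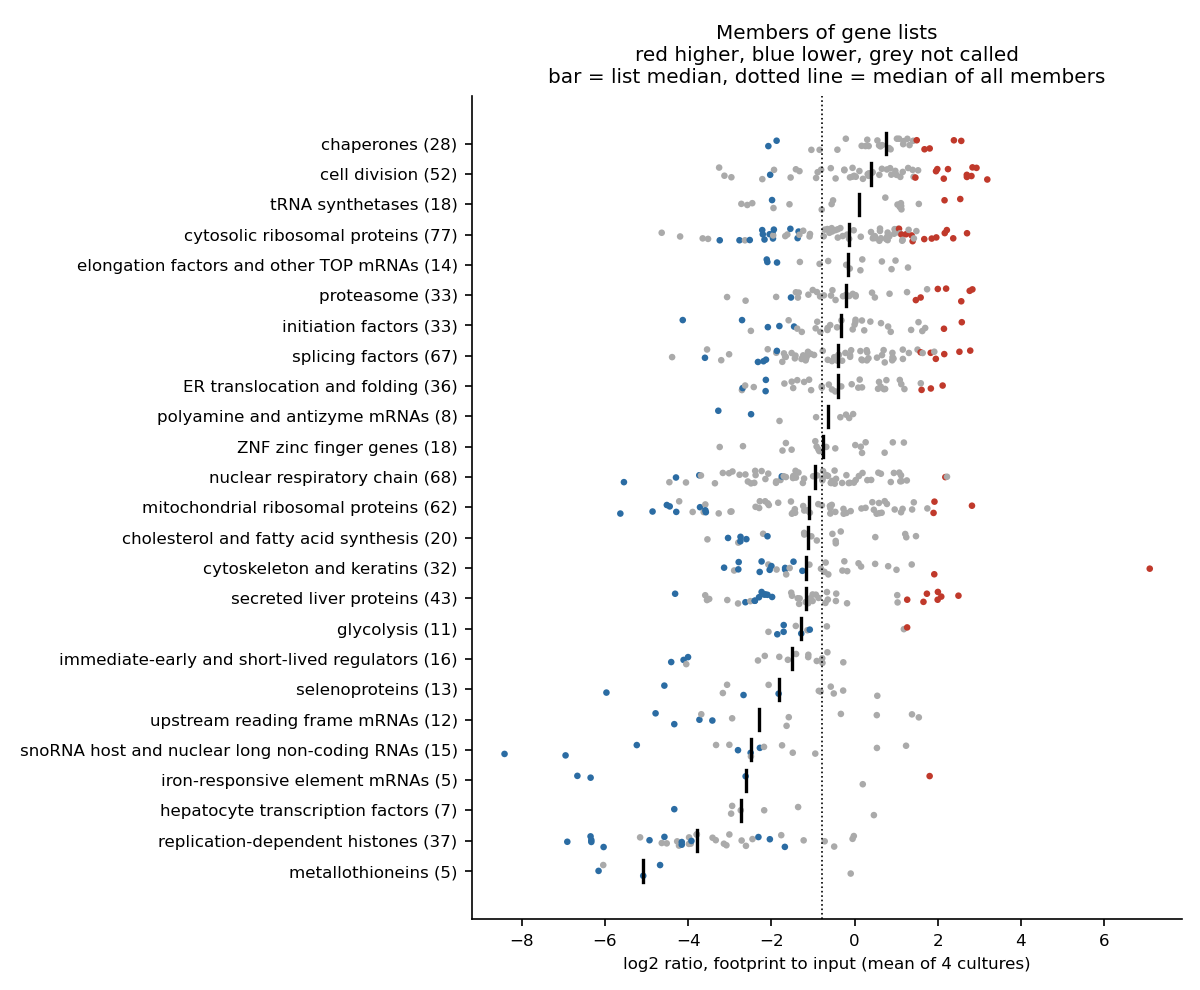
Log2 ratio of footprint to input (x axis, mean of 4 cultures) of the members of 25 gene lists, ordered by list median (black bar), with the number of members in brackets; red points are higher, blue lower, grey not called, and the dotted line is the median of all members at -0.78. Medians run from -5.08 for metallothioneins to 0.75 for chaperones, and TMSB4X stands alone at 7.10.

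Members that encode no protein included some of the lowest ratios. RPPH1, the RNA of ribonuclease P, took 51666.45, 66692.77, 68431.69 and 71275.62 TPM of the inputs and 2761.49, 3873.2, 4285.98 and 2307.23 TPM of the footprints. Its ratio was -5.24 (SE 0.28, limma adjusted p = 0.00263). TERC, the telomerase RNA, was at -6.95 and the host gene SNHG16 at -2.80, and these 3 were steady. TERC footprints were at 0, 0, 0 and 67.83 TPM. It thus passed the footprint minimum through sgMETTL16-3 alone, and its ratio was -8.49 without that culture. Its kept call rests on values of 0 and adds no support. RMRP, of ribonuclease MRP, had ratios of -7.48, -5.49, -5.72 and -14.99, the last against a footprint of 0 in sgMETTL16-3. Its mean was -8.42, or -6.23 without that culture, and its call was lost with TPM rescaled over protein-coding genes or without sgNS. MALAT1 (-2.50) and NORAD (-2.28) were lower, calls lost under both other scalings and without sgNS or sgMETTL16-1, among others. FTL thus had a lower ratio than the ribonuclease P RNA in these libraries; the difference between the 2 genes was not tested.

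At the opposite end RNA28S5, a ribosomal RNA, was at 17.76, 199.92, 172.8 and 253.38 TPM in the inputs and 43562.22, 48420.34, 22327.37 and 68217.51 TPM in the footprints, a ratio of 7.63. MTRNR2L8, a nuclear copy of mitochondrial 16S ribosomal RNA sequence, was at 6.98, with 1.96, 5.4, 7.72 and 6.29 TPM in the inputs and 1311.82, 1775.24, 601.81 and 2192.8 TPM in the footprints. TMSB4X, which encodes the actin-binding peptide thymosin beta 4, was at 1.1, 1.54, 1.93 and 1.27 TPM in the inputs and 759.74, 750.96, 277.4 and 617.16 TPM in the footprints, a ratio of 7.10 (SE 0.52, limma adjusted p = 0.00263). The pseudogene PDIA3P1 was at 3.91. VIM, vimentin, which was no member, was listed at 0 in all 4 inputs and at 188.14, 85.16, 78.73 and 43.3 TPM in the footprints. RNA28S5, MTRNR2L8, TMSB4X and PDIA3P1 have copies or relatives elsewhere in the genome, so reads of another copy cannot be told apart from theirs here. The cause of the VIM values was not tested.

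LYZ, lysozyme, counted among the blood cell markers, was at 216.31, 479.95, 619.72 and 193.67 TPM in the inputs and higher in the footprints at 1.52 (SE 0.26, limma adjusted p = 0.00942), a call lost without sgMETTL16-1. Over that whole list inputs summed to between 210.1 and 637.2 TPM and footprints to between 627.8 and 3487 TPM, while PTPRC, CD3D, CD3E, SPI1, MPO, HBA2 and HBB were under 1 TPM in every input. The 12 hepatocyte markers summed to 4689 to 23318 TPM in the footprints, lowest in sgMETTL16-3.

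How far a gene's ratio recurred between cultures depended on its footprint coverage. Over all 3618 members Spearman's rho between the ratios of a pair of cultures was 0.32 to 0.49 and Pearson's r 0.29 to 0.43, in 6 pairs. Over the 1587 members above 0 in all 8 libraries both lay between 0.70 and 0.82. No library is shared between cultures, but genes are not independent replicates, and a choice of genes above 0 everywhere removes the low values. In a fit of the genes above 0 in all 8 libraries alone, 482 of these 1587 were higher and 476 lower, where 30.2% and 31.0% of the 1838 genes in that fit were. All 204 higher members of the whole fit were among these 482, and 231 of the 433 lower members were among these 476. The members' median ratio by culture was -0.57, -0.31, -0.16 and -1.41, the lowest in sgMETTL16-3, whose footprint library had the fewest members above 0.

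Input level was the feature that went furthest with the ratio. Spearman's rho with the mean input was -0.61 over the members, and from the lowest to the highest of 4 equal bins of input the median ratio went from 0.53 through -0.54 and -1.63 to -2.20. The input is part of the ratio, and the rule's footprint minimum keeps low-input genes with low ratios out, so the sign is partly set by construction. GC content of the RefSeq promoter window went weakly with the ratio (rho -0.14 over 3001 members, -0.20 over the 1332 above 0 in all 8 libraries). Medians in 4 bins of rising GC were -0.51, -0.57, -0.75 and -1.28. Within the 4 bins of input the rho with GC lay between -0.13 and 0.02. These values describe genes that share libraries, depth and base composition.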

How the data were processed

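The deposited values are TPM per gene symbol for 4 input and 4 footprint libraries. Per the submitters' processing notes, the authors used STAR, RSEM 1.2.31 and GRCh38; the STAR version and any filters are not given in the sources used here. As each TPM column has the same total, abundant small RNAs lower all other values, and depth is unknown.

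Each library was divided by a size factor, the median ratio to the geometric mean over genes above 0 in all 8 libraries without small structural RNAs, because the median gene of a sparse footprint library is at 0. log2(value + 1) was fitted with limma 3.58.1 in R 4.3.3 (intensity trend, culture as block, 3 residual degrees of freedom) over genes whose mean TPM reached 1, with Benjamini-Hochberg adjustment and a threshold of 0.05. The fit was also run on simulated data in which low genes were first raised to a higher level. That run does not cover sparse footprint values, and its outcome is not reported here. A fold change on this scale understates that of low genes. Titles give the input and the footprints of a culture the same guide name, which is the pairing used. No label says that cultures were repeated, so p-values measure the spread between these 4. Genes sharing near-identical copies (histones, ribosomal protein, ferritin and metallothionein genes with pseudogenes or relatives) are uncertain, since short reads can be split among copies.

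Named genes were the 12 highest and 12 lowest protein-coding members past the threshold with a mean input of 10 TPM or more and 1 sign in all 4 cultures, up to 4 of the most abundant members and the most significant ones of each list, and METTL16. Further steady, lowest and single genes were picked after their values were seen. The members and the lists were chosen with earlier results of these data known. RefSeq (GRCh38.p14) gave types, places and promoters: 3591 members matched and 3001 had a promoter. Alternatives were other pseudocounts, scalings and filters, no block, each culture left out, and, added after seeing the data, genes above 0 in all 8 libraries alone and ratios of summed TPM. Protein length was not used here. Counts over a list include a few members whose own values are not reported here.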

Additional observations from a re-analysis of the deposited data

Results flagged for a closer look

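In 56 groups of 4 values, 1 per culture, the highest or lowest value was compared with Dixon's critical value for 4; chance alone would mark about 1 group in 20. RPL30 stood apart because its log2 ratio in sgNS, 1.42, was the lowest and far from the other cultures. For 5 genes with low footprints 1 culture lay far above the rest: HIST1H2AI in sgNS at -2.65, MT1G in sgNS at -2.73, MRPS24 in sgMETTL16-1 at -1.53, NDUFB7 in sgMETTL16-2 at -1.41 and CTDNEP1 in sgNS at -1.47. In each of these 5, footprints were above 0 in that culture and listed at 0 in the other 3. They passed the footprint minimum of 10 TPM through that culture alone. The rule and the values of 0 thus largely set this outcome in advance, and the rate of 1 in 20 is no measure of it.

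The summed log2 ratio of the upstream reading frame list was lowest in sgMETTL16-3, at -4.19. The footprint library of sgMETTL16-3 also stood apart from the other footprint libraries as a whole: members held 18.2% of its TPM and protein-coding genes 11.9%, the lowest of 4 in both.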

How the results depend on the processing

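No gene with a call among those recomputed changed sign, but list medians did. With TPM as deposited and rescaled, that of initiation factors went from -0.32 to 0.59 and 0.55, of proteasome genes from -0.20 to 0.61 and 0.41, and of ribosomal proteins from -0.13 to 0.78 and 0.83. The balance of calls also turned. Members higher and lower numbered 119 and 193 with a pseudocount of 0.1; 806 were lower with a pseudocount of 10. With TPM as deposited 348 were higher and 56 lower, and with TPM rescaled over protein-coding genes 318 and 57; the median of all genes tested moved from -1.56 to -0.93 and -1.80. Without the replicate block, that is without pairing by culture, 355 members were higher and 681 lower. In the fit of genes above 0 in all 8 libraries 482 members were higher. Leaving out each culture in turn left 59 to 130 members higher and 181 to 279 lower; the fewest higher were left without sgMETTL16-1 and the fewest lower without sgMETTL16-3.

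Over all genes tested, higher counts were 197 (pseudocount 0.1), 502 (no replicate block), 555 (above 0 in all 8) and 159 to 237 (cultures left out). Lower counts were 2568 (TPM as deposited), 2338 (rescaled), 9130 (no filter), 1371 (mean of 10 TPM or more) and 570 (above 0 in all 8), for which fewer or more genes were tested, and 2812 to 3628 with a culture left out. The members' median ratio was -0.60 in sgMETTL16-3 with a pseudocount of 10. With TPM as deposited it was 1.13 in sgNS, 0.35 in sgMETTL16-1 and -0.75 in sgMETTL16-3, and with TPM rescaled it was 0.77 in sgNS, 0.29 in sgMETTL16-1 and -0.0723 in sgMETTL16-3, as its zero is set by the scaling. Over members above 0 in all 8 libraries the median rho between cultures was 0.77 and the rho with promoter GC -0.20. The cause of the other shifts was not tested. Footprint sparsity limits all ratios against a value of 0.

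Of the 24 named genes with the highest and lowest ratios, 19 kept their call with a pseudocount of 0.1, 19 with TPM as deposited, 16 with TPM rescaled, and 15 to 20 with a culture left out.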
